A study of Mus musculus with 18 samples.

Results

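The cytosolic ribosomal protein genes encode the proteins of the small and large subunits of the ribosome outside mitochondria. They were chosen by symbol alone (Rpl or Rps followed by a number, with an optional a, l or x, together with Rpsa and the stalk genes Rplp0, Rplp1 and Rplp2), with no use of their values. The rule found 83 of 33665 gene symbols in the series, which were 83 of 32532 symbols at embryonic day 17 (E17), 12 of 4841 at postnatal day 0 (P0) and 81 of 19450 at postnatal day 5 (P5). RNA sequencing after depletion of ribosomal RNA had been run on dental epithelium that dispase freed from the mesenchyme of mouse molar tooth germs. The groups were DKO (Hmgn1-/-; Hmgn2-/-) and WT at E17, P0 and P5, with 3 libraries per group and 18 in all. HMGN1 and HMGN2, the nucleosome-binding proteins that DKO mice lack, are studied in the series for their part in the differentiation of ameloblasts, the cells that deposit enamel. The labels name no strain, do not say whether tissue was pooled, and do not state that each library is another animal. The p-values therefore measure the spread between libraries, which may be technical.

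Each ribosome carries 1 copy of nearly every ribosomal protein, and cells hold the set in balance by transcribing these genes at similar high rates and by degrading protein that is not assembled. Many of their mRNAs begin with a C followed by a run of pyrimidines, the 5' terminal oligopyrimidine (TOP) tract, through which the mTOR pathway and LARP1 control their translation. In many tissues their mRNA is abundant in dividing cells, and in a secretory cell such as the ameloblast the ribosome makes large amounts of a few matrix proteins.

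The values were RPKM (reads scaled by transcript length and by library depth, a unit read from the values), and were summed over the transcripts of a symbol. At E17, 488 of 110159 transcripts belonged to the family, against 53 of 16381 at P0 and 130 of 38288 at P5. The P0 table covered chromosomes 1 and 10 and part of 11, and genes elsewhere were not analysed here at P0. E17 and P0 used one transcript annotation and P5 another, so levels were not compared across the tables. Libraries held 39209676 to 108920337 alignments per the file headers. As a check of the genotype labels, Hmgn2 had 0.839, 0.953 and 0.975 RPKM in DKO libraries, against 354, 344 and 320.0 RPKM in WT libraries at E17. Hmgn1 mRNA was lower but present in DKO libraries, at 86.2 to 92.9 RPKM, against 123 to 133 RPKM in WT libraries at E17. At P5 Hmgn2 had 9.05, 5.44 and 10.4 RPKM in DKO libraries, against 183, 166 and 166 RPKM in WT libraries. On the deposited scale, the 11 epithelial markers, which include the enamel genes Amelx and Ambn, summed to 3143 to 3387 RPKM in DKO libraries and 2626 to 3062 RPKM in WT libraries at E17. Mesenchymal markers were present as well, with a sum over 8 genes of 2449.8 to 2663 RPKM in DKO libraries and 4132 to 4511 RPKM in WT libraries at E17, so the libraries were not of epithelium alone.

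The family is spread over the genome and shares features of its promoters. The 83 genes lay on 19 chromosomes, with 14 on chromosome 7 and 4 on the X, and 29 of them held at least 1 small nucleolar RNA gene on the same strand within their bounds. Start-site sequence from RefSeq (build GRCm38.p6, 250 bases before to 50 after each start) was at hand for 61 of the 83. The windows below run from 50 bases before the start to the 30th transcribed base, for genes whose values are described in the following paragraphs. Capitals mark 3 strings of the TOP kind on the strand that reads as the transcript. They are CTCTTT in some genes, CTTTCC in others and also the string CTTTTC. Capitals also mark CCGGAA on either strand, the core letters of sites for ETS factors, and the palindrome CTCGCGAG.
Rps6, a small subunit protein phosphorylated by the S6 kinases, chr4:86857338-86857417, minus strand: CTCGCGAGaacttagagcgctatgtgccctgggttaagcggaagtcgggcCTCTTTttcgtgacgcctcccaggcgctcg
Rpl35, a protein at the exit tunnel, chr2:39005102-39005181, minus strand: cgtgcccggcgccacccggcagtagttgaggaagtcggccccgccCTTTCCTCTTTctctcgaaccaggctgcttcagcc
Rps27, a small subunit protein, chr3:90213619-90213698, minus strand: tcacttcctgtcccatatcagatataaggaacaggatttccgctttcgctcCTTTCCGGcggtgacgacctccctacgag
Rps27l, the paralog of Rps27, chr9:66946036-66946115, plus strand: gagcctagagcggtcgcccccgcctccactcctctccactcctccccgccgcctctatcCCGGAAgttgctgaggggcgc
Rps19, a small subunit protein, chr7:24884542-24884621, plus strand, first of 3 starts in the table: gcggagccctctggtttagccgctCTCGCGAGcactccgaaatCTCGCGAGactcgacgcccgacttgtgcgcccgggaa
Rpl22, a large subunit protein, chr4:152325676-152325755, plus strand, first of 2 starts: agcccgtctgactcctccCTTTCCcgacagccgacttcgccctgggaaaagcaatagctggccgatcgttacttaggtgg

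In Rps6 the string CTCTTT began at the annotated start itself and the palindrome opened the window, and Rps19 held the palindrome in 2 places. The window of Rps27l held CCGGAA and none of the TOP strings. In Rpl35 the strings CTTTCC and CTCTTT overlapped by a base, and in Rps27 CTTTCC overlapped the reverse complement of CCGGAA. Over the full 300-base windows, at least 1 of the 3 TOP strings was found in 42 of 61 ribosomal protein genes (68.9%), against 33.4% of all 27025 genes in the promoter table. CCGGAA was found in 33 of 61 (54.1%), against 16.7% of all genes, and the palindrome in 7 of 61 (11.5%), against 1.04%. The TATA letters TATAAA were found on either strand in 7 of 61 (11.5%), against 15.7% of all genes. A match is a match of letters only and does not show that a factor binds there. Most of each window lies before the start, so these counts do not measure TOP tracts at the 5' end of mRNAs.

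Most of the family's RPKM sat in protein-coding transcripts, although these were fewer than the non-coding ones. At E17, 226 of the 488 transcripts were annotated as protein coding, 172 as retained introns, 63 as processed transcripts and 24 as targets of nonsense-mediated decay. A further 2, the single transcripts of Rpl6l and Rpl32l, were annotated as processed pseudogenes, and 1 as a transcribed processed pseudogene. Rpl6l is nonetheless among the genes tested at E17 and at P0. The coding transcripts held 93.9% ± 0.345 of the family's RPKM in DKO libraries and 94.2% ± 0.204 in WT libraries (SD, n = 3 each). Retained introns held 2.10% ± 0.110 in DKO libraries and 2.10% ± 0.0352 in WT libraries. For these 2 types the genotypes differed by less than the SD of the DKO libraries. Processed transcripts held 1.37% ± 0.187 in DKO libraries and 1.17% ± 0.0702 in WT libraries. The difference was slightly above the SD of the DKO libraries and well above that of the WT libraries, although DKO replicate 1 lay within the WT range. In the median gene 96.9% of the RPKM sat in its highest transcript.

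Levels within the family were high and spanned a wide range. At E17 the 76 core proteins, leaving out paralogs, had a median mean level of 844 RPKM and ran from 176 to 1999 RPKM. Rps14, a small subunit protein (chr18:60747098-60778546 on mm10), had the highest mean over the 6 libraries, followed by Rpl41, the shortest ribosomal protein, at 1926 RPKM and by the stalk protein Rplp1 at 1839 RPKM. Rps14 lay above Rplp1 in 6 of 6 libraries. Rpl41 lay above Rplp1 in the 3 DKO libraries and below it in the 3 WT libraries, and its order with Rps14 also varied between libraries. At P5 Rpl41 led at 2663 RPKM (range 2498 to 3079) and did not overlap Rplp1, second at 1655 RPKM. The P5 table held 3 core genes under 100 RPKM (Rpl30, Rps15a and Rpl22), whereas the E17 table held 0, under its own annotation. Ribosomal protein genes have many processed pseudogenes, and how the authors' counting shared reads among copies is not given in the sources used here, so levels of single genes are uncertain on that account.

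At E17 every tested ribosomal protein gene was higher in DKO libraries on the deposited scale. The marker genes of the rule show the pattern. Rplp0 (chr5:115559467-115563727), the base of the stalk that recruits the factors of translation, had 1564, 1676 and 1636 RPKM in DKO libraries, against 1282, 1224 and 1207 RPKM in WT libraries. Rps6 (chr4:86854660-86857412) had 1132, 1252 and 1232 RPKM in DKO libraries, against 972, 859 and 829 RPKM in WT libraries. In both genes the DKO and WT libraries did not overlap, and WT replicate 1 lay nearest to the DKO libraries. The log2 fold change, DKO minus WT on log2(RPKM + 1), was 0.39 ± 0.089 (SE, adjusted p = 0.00632) for Rplp0 and 0.44 ± 0.098 (SE, adjusted p = 0.0056) for Rps6 in the limma fit across all genes.

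Of the 83 genes, 80 passed the filter of 1 RPKM in 3 of the 6 libraries at E17, and Rpl10l, Rpl32l and Rpl3l did not. All 80 were called higher at an adjusted p under 0.05, where 56.3% of the 13728 genes tested were called higher and 3.3% lower. Among the 80, Rpl39l passed the filter through all DKO libraries and 1 WT library, so its call was in part set by the filter. The median log2 fold change of the 80 was 0.41, with a narrow middle 50% of 0.39 to 0.44, beside 0.25 over all genes tested. Since the median of all genes also lay above 0, each library was divided by its upper quartile (the 75th percentile over the genes that passed the filter, relative to the other libraries), which moved the median of all genes at E17 to -0.0039. The family's median was then 0.12, with a middle 50% of 0.10 to 0.15 and a range of 0.023 to 0.44. All 80 values were above 0, and 1 gene, Rps27l, was called higher, where 6.61% of all genes were called higher and 8.03% lower. With median-of-ratios scaling 1 gene was again called higher, where 6.77% of all genes were called higher and 7.96% lower. The subunits did not separate, with medians of 0.12 for the 30 tested core genes of the small subunit and 0.12 for the 46 of the large subunit.

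**Figure D1:**
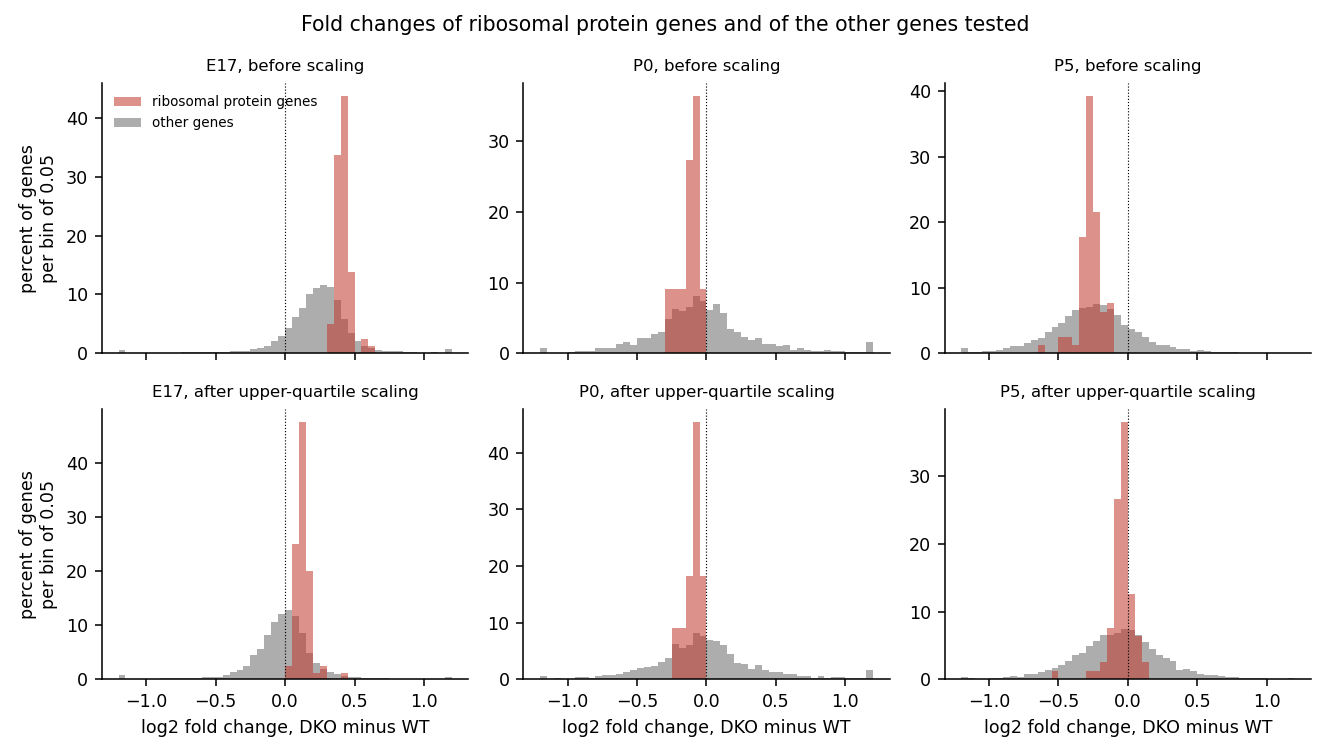
Histograms of log2 fold changes (x axis, DKO minus WT, bins of 0.05) as a percent of the genes in each class (y axis) for ribosomal protein genes (red) and all other genes tested (grey) at E17, P0 and P5, before scaling in the upper row and after upper-quartile scaling in the lower row; values beyond 1.2 in size are drawn in the end bins. The family forms a narrow peak, with a median of 0.41 before scaling and 0.12 after it at E17, and of -0.26 and -0.04 at P5, where median-of-ratios scaling gave 0.021.

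The libraries within a group were not alike in this measure. Each gene was set to its mean over the 6 libraries of the stage, and the family's median was taken in each library. Before scaling it stood at 0.12, 0.25 and 0.24 in DKO libraries, against -0.068, -0.28 and -0.27 in WT libraries at E17. After scaling it stood at 0.063, 0.062 and 0.060 in DKO libraries, against 0.057, -0.14 and -0.094 in WT libraries. WT replicate 1 therefore lay with the DKO libraries once the shift of all genes was removed, and the other WT libraries lay below. Without WT replicate 1, 44 of 80 genes were called higher after scaling, where 8.01% of all genes were called higher and 9.21% lower, and the family's median was 0.17. Without any other single library, 0 were called after scaling, and the median lay between 0.081 and 0.12.

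**Figure D2:**
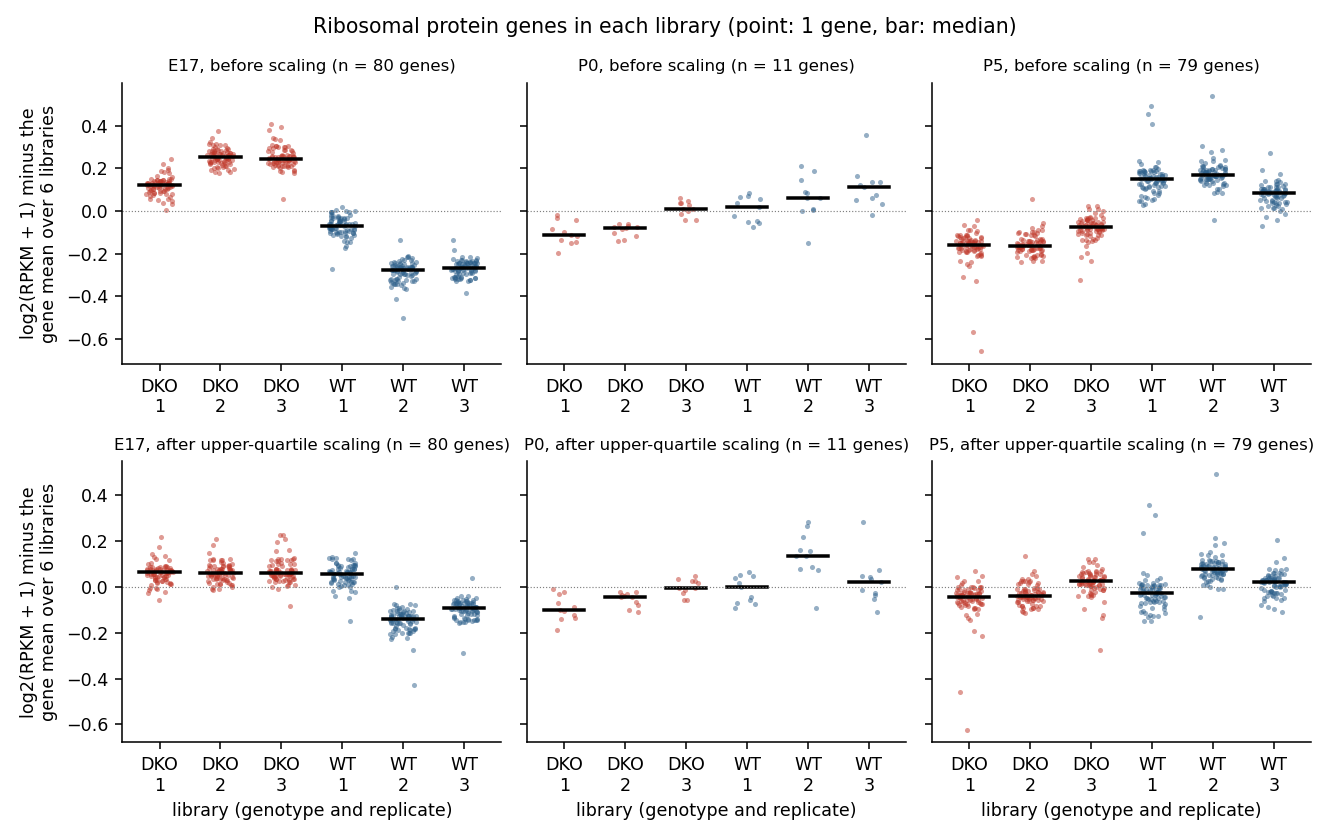
Position of every tested ribosomal protein gene (points) and their median (bar) in each library, as log2(RPKM + 1) minus that gene's mean over the 6 libraries of the stage (y axis), for DKO libraries (red) and WT libraries (blue), before and after upper-quartile scaling. At E17 after scaling, the medians of the DKO libraries and of WT replicate 1 lie between 0.057 and 0.063, and those of the other WT libraries are at -0.14 and -0.094.

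Other cell types and other abundant RNA differed between the same E17 libraries, and their part in the result was not tested. The 6 red cell markers summed to 10410 to 21295 RPKM in DKO libraries and 5769.7 to 7228 RPKM in WT libraries, with 6 of 6 called higher before scaling and 5 after it. The 8 mesenchymal markers, with the sums given above, had 7 tested and 4 called lower before and after scaling, and 1 of the 8 was under 1 RPKM in every library. The 6 muscle markers, of which 4 were called lower before and after scaling, summed to 242 to 312 RPKM in DKO libraries and 262 to 597 RPKM in WT libraries, and the 6 immune markers, of which 5 were called higher before scaling and 0 after it, to 113 to 128 RPKM in DKO libraries and 94.5 to 109 RPKM in WT libraries. Of the 11 epithelial markers, 6 were called higher and 2 lower before scaling and 5 higher and 2 lower after it. After scaling 6 of the 11 had values above 0 and 5 below, with a median of 0.055 and a range of -0.71 to 0.63. Among those above 0 were Cldn1 at 0.63 ± 0.063 (SE, adjusted p = 0.00126) and Epcam at 0.49 ± 0.051 (SE, adjusted p = 0.00151). A gene listed as CT010467.1 took 6.12%, 1.02% and 1.73% of the summed RPKM in DKO libraries, against 8.59%, 9.31% and 8.78% in WT libraries. In bulk tissue, fewer cells of a type and less RNA per cell cannot be told apart.

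As a share of all RPKM, the family held 15.3%, 15.9% and 15.8% in DKO libraries, against 14.02%, 12.9% and 13.2% in WT libraries at E17. The groups did not overlap, with a mean of 15.7% ± 0.349 in DKO libraries and 13.4% ± 0.557 in WT libraries (SD, n = 3 each). With CT010467.1 left out of the total, the shares were 16.3%, 16.1% and 16.1% in DKO libraries, against 15.3%, 14.3% and 14.5% in WT libraries, and the groups still did not overlap.

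The 5 genes farthest above the family's median at E17 were Rpl39l, Rps27l, Rpl41, Rpl35 and Rpl13a, of which Rps27l belongs to the small subunit and the others to the large. Rps27l (chr9:66946086-66949516), a paralog of Rps27 known as a target of p53, had 195, 206.5 and 221 RPKM in DKO libraries, against 155, 127 and 135 RPKM in WT libraries. The groups did not overlap, and the log2 fold change was 0.57 ± 0.091 (SE, adjusted p = 0.00201) before scaling and 0.29 ± 0.073 (SE, adjusted p = 0.039) after it. Rpl41 had 2008, 2438 and 2472 RPKM in DKO libraries, against 1680.2, 1459 and 1497 RPKM in WT libraries, with a log2 fold change of 0.57 ± 0.12 (SE, adjusted p = 0.00441) that was 0.28 ± 0.085 (SE, adjusted p = 0.0643) after scaling. Rpl35 and Rpl13a, both large subunit proteins, had log2 fold changes of 0.50 and 0.49 before scaling and 0.20 and 0.20 after it, with adjusted p of 0.13 and 0.156 after scaling.

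At the low end stood Rps4x, Rps15a, Rpl23, Rps24 and Rpl9, whose log2 fold changes of 0.31 to 0.35 were still called higher before scaling. Rps4x (chrX:102184941-102189394), the X-linked gene of a small subunit protein, had 1326, 1390.3 and 1385 RPKM in DKO libraries, against 1229, 1039 and 1042 RPKM in WT libraries. Its log2 fold change was 0.31 ± 0.10 (SE, adjusted p = 0.0244) before scaling and 0.023 ± 0.079 (SE, adjusted p = 0.871) after it, the lowest of the family on both scales. The other genes had scaled log2 fold changes of 0.026 (Rps15a), 0.051 (Rpl23), 0.053 (Rps24) and 0.061 (Rpl9).

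The genes of the stalk and of the 5S particle lay on both sides of the family's median. Rplp1 and Rplp2, the acidic proteins that pair on Rplp0, had log2 fold changes of 0.35 and 0.43 at E17, and Rpl5 and Rpl11, which assemble with 5S rRNA and can bind Mdm2, of 0.46 and 0.46. All of these were called higher before scaling, and none was called after it, with adjusted p from 0.195 to 0.641. Scaled log2 fold changes were 0.062 for Rplp1, 0.14 for Rplp2, 0.17 for Rpl5 and 0.17 for Rpl11.

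At P0 the 12 listed members left 11 for testing, Rpl32l being under 1 RPKM in every library. All 11 log2 fold changes were below 0, from -0.25 to -0.041, with a median of -0.11 beside -0.054 over all 2062 genes tested. Of the 11, 1 was called lower and 0 higher, where 23.2% of all genes were called lower and 16.7% higher. It was Rps15 (chr10:80292453-80294114), a protein of the head of the small subunit, with 1162, 1212 and 1296 RPKM in DKO libraries, against 1386, 1543 and 1439 RPKM in WT libraries. Its groups did not overlap, and its log2 fold change was -0.25 ± 0.083 (SE, adjusted p = 0.0294) before scaling and -0.23 ± 0.084 (SE, adjusted p = 0.0542) after it. Rpl23a (chr11:78180932-78183584), a protein at the rim of the exit tunnel, had 1451, 1483 and 1562 RPKM in DKO libraries, against 1681, 1703 and 1800.4 RPKM in WT libraries, again with no overlap. Its log2 fold change was -0.21 ± 0.08 (SE, adjusted p = 0.0591) before scaling and -0.18 ± 0.062 (SE, adjusted p = 0.0395) after it, when it was the gene called lower beside 25.8% of all genes called lower and 21.5% called higher. Neither call held in every setting, since 0 of 11 were called with median-of-ratios scaling, where 22.9% of all genes were called lower and 24.3% higher.

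The remaining P0 members did not pass on either scale. Rpl26, near the exit tunnel like Rpl23a, had a log2 fold change of -0.15 ± 0.078 (SE, adjusted p = 0.145). Rps27a, which encodes ubiquitin fused to a small subunit protein, had -0.13 ± 0.077 (SE, adjusted p = 0.224). Rpl7, Rpl31, Rpl41 and Rpl37a of the large subunit had -0.11, -0.098, -0.097 and -0.08, and Rps26 and Rps12 of the small subunit had -0.059 and -0.041, with adjusted p of 0.302 to 0.705. Rpl6l, annotated as a processed pseudogene, had 4.04, 3.64 and 4.10 RPKM in DKO libraries, against 3.95, 3.60 and 5.54 RPKM in WT libraries. Its log2 fold change was -0.11 ± 0.13 (SE, adjusted p = 0.53). The family's library medians at P0 before scaling were -0.11, -0.08 and 0.011 in DKO libraries, against 0.016, 0.062 and 0.11 in WT libraries, so DKO replicate 3 and WT replicate 1 lay side by side. Markers of other cells moved as well at P0, and their part in the result was not tested. The 3 mesenchymal markers in that table summed to 1796 to 2734 RPKM in DKO libraries and 554 to 684 RPKM in WT libraries. Most of that sum was the collagen gene Col1a1, at 1727 to 2682 RPKM in DKO libraries and 463 to 536 RPKM in WT libraries. Before scaling Col1a1 was called higher, with 2.12 ± 0.14 (SE, adjusted p = 3.78e-07). The other 2 were called lower, Col3a1 with -1.09 ± 0.16 (SE, adjusted p = 0.000226) and Prrx1 with -0.96 ± 0.19 (SE, adjusted p = 0.00178). Of all genes, 16.7% were called higher and 23.2% lower. The 2 red cell markers summed to 883 to 1118 RPKM in DKO libraries and 1356 to 1495 RPKM in WT libraries, with 1 called lower before scaling.

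At P5 most ribosomal protein genes were lower in DKO libraries on the deposited scale, by about as much as genes in general. Rplp0 had 1126, 1104 and 1245 RPKM in DKO libraries, against 1423, 1347 and 1317 RPKM in WT libraries, a log2 fold change of -0.24 ± 0.063 (SE, adjusted p = 0.00729). Rps6 had 179, 185 and 168 RPKM in DKO libraries, against 207, 240.1 and 219 RPKM in WT libraries, a log2 fold change of -0.32 ± 0.065 (SE, adjusted p = 0.00153). The DKO and WT libraries did not overlap in either gene.

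Of the 81 members in the P5 table, 79 were tested, since Rpl3l and Rpl32l fell under the filter. Before scaling 74 of the 79 were called lower and 0 higher, where 58.2% of all 11423 genes were called lower and 7.36% higher. The family's median log2 fold change was -0.26, with a middle 50% of -0.31 to -0.23, beside -0.25 over all genes tested. Upper-quartile scaling moved the median of all genes to -0.056 and that of the family to -0.04, with 62 values below 0 and 17 above. After it 3 genes were called lower and 0 higher, where 30.8% of all genes were called lower and 19.4% higher. The family's direction at P5 turned with the scaling, because median-of-ratios scaling gave a median of 0.021 with 3 genes called higher (Rpl35a, Rps16 and Rps27) and 0 lower, where 24.6% of all genes were called higher and 24.7% lower.

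The 3 genes called lower after upper-quartile scaling were Rps4x, Rpl30 and Rpl22. Rps4x had 621, 637 and 677 RPKM in DKO libraries, against 871, 858 and 838 RPKM in WT libraries, with a log2 fold change of -0.41 ± 0.054 (SE, adjusted p = 0.000117) before scaling and -0.18 ± 0.047 (SE, adjusted p = 0.0108) after it. Rpl30 (chr15:34440505-34443640), a large subunit protein whose yeast homologue controls the splicing of its own mRNA, had 26.2, 29.8 and 28.3 RPKM in DKO libraries, against 44.2, 35.2 and 37.9 RPKM in WT libraries. Its log2 fold change was -0.46 ± 0.084 (SE, adjusted p = 0.00082) before scaling and -0.24 ± 0.071 (SE, adjusted p = 0.0212) after it. Rpl22 (chr4:152325742-152334071), an RNA-binding protein of the large subunit, had 82.1, 83.5 and 86.2 RPKM in DKO libraries, against 109, 119.7 and 105 RPKM in WT libraries, with a log2 fold change of -0.40 ± 0.06 (SE, adjusted p = 0.000238) before scaling and -0.18 ± 0.058 (SE, adjusted p = 0.0309) after it. In all 3 genes the groups did not overlap before scaling, and after scaling the highest DKO library and the lowest WT library were 32.6 and 33.1 scaled RPKM for Rpl30, close to each other. With single libraries left out after scaling, between 1 and 7 genes were called, and without WT replicate 2 the 7 were 4 higher and 3 lower.

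**Figure D3:**
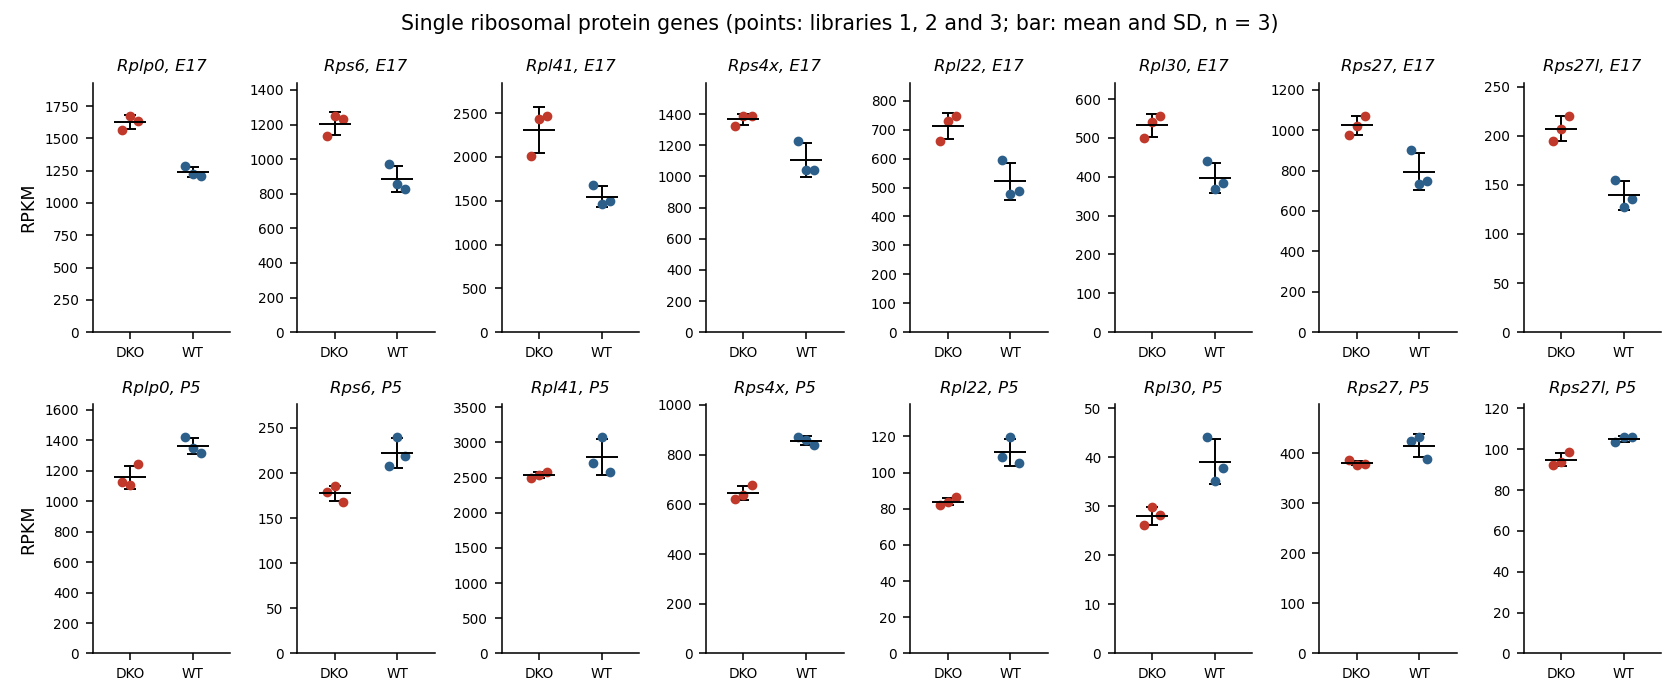
RPKM (y axis, from 0) of 8 ribosomal protein genes in DKO libraries (red, left) and WT libraries (blue, right) at E17 (upper row) and P5 (lower row), before scaling; points are libraries 1, 2 and 3 and bars give the mean and SD (n = 3). The DKO libraries lie above the WT libraries in all 8 genes at E17 and below them at P5, except for Rpl41 at P5, where they overlap.

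The 5 genes farthest above the family's median at P5 were those not called before scaling, namely Rpl35a, Rps16, Rps27, Rpl41 and Rps12. Their log2 fold changes were -0.10, -0.11, -0.13, -0.13 and -0.14, with adjusted p of 0.0528 to 0.116. After scaling they stood above 0, at 0.12 for Rpl35a, 0.12 for Rps16, 0.099 for Rps27, 0.092 for Rpl41 and 0.085 for Rps12, and none passed, with adjusted p of 0.0668 to 0.32. Rps16 had 1108, 1093 and 1162 RPKM in DKO libraries, against 1207, 1233 and 1184 RPKM in WT libraries. Its libraries did not overlap, although the gap between the highest DKO and lowest WT library was small.

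The stalk genes Rplp1 and Rplp2 had log2 fold changes of -0.19 and -0.25 at P5, and Rpl5 and Rpl11 of the 5S particle had -0.29 and -0.26, and these fell before scaling. After scaling the values were 0.038 for Rplp1, -0.023 for Rplp2, -0.068 for Rpl5 and -0.04 for Rpl11, with adjusted p of 0.194 to 0.715.

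Enamel matrix mRNA moved with the P5 result. Amelx, which encodes the main enamel matrix protein, took 38.8%, 38.0% and 33.8% of all RPKM in DKO libraries, against 23.1%, 24.2% and 21.7% in WT libraries. The ribosomal protein genes held 9.94%, 10.04% and 11.2% of all RPKM in DKO libraries, against 13.8%, 14.1% and 14.1% in WT libraries, with no overlap. With Amelx left out of the total, their share was 16.2%, 16.2% and 16.9% in DKO libraries, against 17.9%, 18.6% and 18.02% in WT libraries. The groups still did not overlap, and the gap between them was smaller. Ambn, another enamel matrix gene, stayed in that total. It had 31387 to 34643 RPKM in DKO libraries and 15043 to 18089.5 RPKM in WT libraries. Whether the groups overlap with both genes left out was not tested. Mesenchymal markers summed to 1005 to 1361 RPKM in DKO libraries and 2268 to 2576 RPKM in WT libraries at P5, with 7 of 8 called lower before scaling, and red cell markers to 517 to 1185 RPKM in DKO libraries and 1348 to 1479 RPKM in WT libraries, with all 5 tested called lower. All 5 immune markers tested were called lower before scaling, and 0 of the 6 muscle markers passed the filter. Of all genes, 58.2% were called lower and 7.36% higher before scaling, and 30.8% lower and 19.4% higher after upper-quartile scaling. After that scaling 4 of the 8 mesenchymal markers were called lower. Of the 11 epithelial markers, which include Amelx, 3 were called higher and 4 lower before scaling, and 4 higher and 1 lower after it. The part of these cells in the result was not tested.

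The genotype effect differed between E17 and P5 in sign for the whole family before scaling. The difference of the log2 fold changes, E17 minus P5, was called for all 79 genes tested at both stages, with a median of 0.69, beside 0.52 over all 11049 genes. Of all genes, 78.1% were called with the E17 effect above the P5 effect and 2.61% with it below. After upper-quartile scaling 10 of the 79 were called, all with the E17 effect above, where 27.5% of all genes were called in that direction and 16.7% in the other. The family's median difference was then 0.17, with 77 of 79 differences above 0, beside 0.069 over all genes. With median-of-ratios scaling 3 were called (Rpl39l, Rpl30 and Rpl22), where 22.4% of all genes were called with the E17 effect above and 20.6% with it below.

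The share of the family called after scaling was below that of all genes. Of the 10 differences, that of Rpl39l (0.94) rests on values near 1 RPKM in a gene that passed the E17 filter through all DKO libraries and 1 WT library. Its test was thus in part set by the filter, and its place in the count is not taken as support. The others were led by Rpl30 (0.37), Rpl22 (0.35) and Rpl35 (0.30), and followed by Rpl31, Rpl39, Rpl12, Rps19, Rpl14 and Rpl18 between 0.26 and 0.22. Those other than Rpl14, Rpl22 and Rpl30 are named after their values were seen. Rpl39 lines the exit tunnel and Rpl31 lies at its rim, while Rpl12 sits at the base of the stalk and Rps19 belongs to the head of the small subunit. Rpl22 had a scaled log2 fold change of 0.17 at E17 and -0.18 at P5, a difference of 0.35 ± 0.10 (SE, adjusted p = 0.0133, from the limma fits). Leaving out WT replicate 1 at both stages raised the count after scaling to 63 of 79, where 27.3% of all genes were called with the E17 effect above and 17.5% with it below, and leaving out any other library number of a genotype gave 3 to 5.

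**Figure D4:**
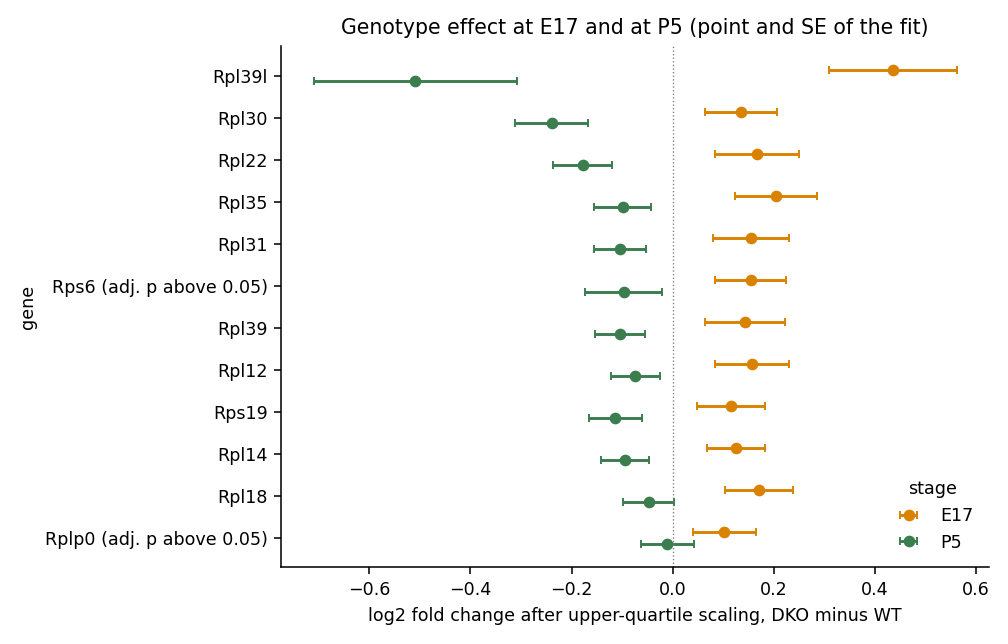
Log2 fold change after upper-quartile scaling (x axis, DKO minus WT, point and SE of the fit, n = 3 libraries per genotype) at E17 (orange) and P5 (green) for the 10 ribosomal protein genes whose effect differed between the stages, with Rplp0 and Rps6, whose difference was not called. In the 10 genes the E17 value lies above 0 and the P5 value below it. The smallest difference is that of Rpl18 (0.17 and -0.048). The largest is that of Rpl39l (0.44 and -0.51), whose values lie near the filter of 1 RPKM.

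The rule also takes in paralogs and pseudogene copies whose level was a small part of their parent's. Rpl39l, known in mouse from the testis, had 1.85, 2.01 and 2.03 RPKM in DKO libraries, against 1.37, 0.702 and 0.845 RPKM in WT libraries at E17, so it passed the filter through all DKO libraries and 1 WT library. Its log2 fold change was 0.60 ± 0.13 (SE) before scaling and 0.44 ± 0.13 (SE) after it, given as values alone because the filter in part set the test. At P5 it had 0.24, 1.03 and 0.562 RPKM in DKO libraries, against 1.68, 1.84 and 0.862 RPKM in WT libraries, where the groups overlapped, with -0.62 ± 0.19 (SE, adjusted p = 0.0148) before scaling and -0.51 ± 0.20 (SE, adjusted p = 0.0625) after it. These values lie near the filter of 1 RPKM, where the log2(RPKM + 1) scale understates a change.

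Rps27l stood at 20.0%, 20.2% and 20.6% of the level of Rps27 in DKO libraries, against 17.2%, 17.4% and 18.04% in WT libraries at E17. A ratio within a library does not depend on scaling, and here the groups did not overlap, although an exact two-sided permutation test of 3 against 3 can reach no p below 0.1, which it gave. At P5 the ratio was 24.95% ± 1.02 in DKO libraries and 25.4% ± 1.65 in WT libraries (SD, n = 3 each), a difference smaller than the spread (exact permutation p = 0.8). Rps27 itself had log2 fold changes of 0.37 at E17 and -0.13 at P5, and Rps27l of 0.57 and -0.15.

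Rps4l, a paralog of Rps4x on chromosome 6, stood at 4.08% ± 0.242 of its parent in DKO libraries and 3.91% ± 0.375 in WT libraries at E17 (SD, n = 3 each, exact permutation p = 0.6). At P5 it stood at 6.60% ± 1.06 in DKO libraries and 6.99% ± 1.24 in WT libraries (exact permutation p = 0.6). Its own level at P5 was 33.4, 46.6 and 48.1 RPKM in DKO libraries, against 70.6, 48.5 and 60.4 RPKM in WT libraries, with a log2 fold change of -0.48 ± 0.15 (SE, adjusted p = 0.0145) before scaling and -0.26 ± 0.15 (SE, adjusted p = 0.174) after it. Rpl6l, annotated as a processed pseudogene, was 0.487% of Rpl6 in DKO libraries and 0.464% in WT libraries at E17. Its log2 fold change was 0.36 beside 0.40 for Rpl6. Rpl3l, which replaces Rpl3 in mouse striated muscle, had 0.751, 1.36 and 1.40 RPKM in DKO libraries, against 0.905, 0.548 and 0.788 RPKM in WT libraries at E17 and was not tested. Rpl32l, annotated as a processed pseudogene at E17 and P0, stayed under 1 RPKM in every library of the 3 stages. Rpl10l, which stands in for the X-linked Rpl10 in mouse male meiosis, was listed at 0 in 5 of 6 libraries at E17.

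Close relatives that the symbol rule leaves out were followed as well. Rpl22l1, the paralog of Rpl22 whose level Rpl22 restrains in mouse, had 200.9, 193 and 202.1 RPKM in DKO libraries, against 212, 231 and 211 RPKM in WT libraries at P5. Relative to Rpl22 it stood at 237% ± 7.04 in DKO libraries and 196% ± 3.76 in WT libraries (SD, n = 3 each), with no overlap and the smallest exact permutation p that 3 against 3 allows (0.1). Rpl22 was 1 of the 3 core genes under 100 RPKM at P5, so this ratio shares the uncertainty of its level. At E17 the ratio was 51.3% ± 0.766 in DKO libraries and 49.7% ± 1.26 in WT libraries, and the groups overlapped (exact permutation p = 0.2). Rpl22l1 itself had a log2 fold change of -0.13 ± 0.055 (SE, adjusted p = 0.0537) before scaling and 0.092 ± 0.055 (SE, adjusted p = 0.194) after it at P5. Rpl7l1, a nucleolar relative of Rpl7, fell to 14.7, 15.9 and 15.6 RPKM in DKO libraries, against 24.7, 26.5 and 24.9 RPKM in WT libraries, with a log2 fold change of -0.68 ± 0.061 (SE, adjusted p = 1.51e-05) before scaling and -0.47 ± 0.059 (SE, adjusted p = 0.00032) after it. Rpl36al, a copy of Rpl36a, had -0.086 before scaling (adjusted p = 0.185) and 0.14 ± 0.045 (SE, adjusted p = 0.0309) after it. At P5 Rpl36al stood at 70.1% of Rpl36a in DKO libraries and 59.8% in WT libraries. Rpl7l1 stood at 2.41% of Rpl7 in DKO libraries and 3.34% in WT libraries. Neither ratio overlapped (exact permutation p = 0.1 each), so a ratio without overlap at P5 was not particular to Rpl22l1. Fau, which encodes a ribosomal protein fused to ubiquitin-like sequence, and Rack1, a scaffold on the small subunit, had log2 fold changes of 0.40 to 0.45 at E17 and of -0.33 to -0.16 at P5, both called before scaling and neither after it.

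The rest of the translation machinery is given from lists chosen by function. At E17 56.3% of all genes were called higher before scaling, and 6.61% higher and 8.03% lower after it. Elongation factors had 7 of 7 tested called higher before scaling and 0 after it. Eif5a had 0.46 ± 0.078 (SE, adjusted p = 0.00244), and Eef2, which moves the ribosome along the mRNA, had 0.40 ± 0.084 (SE, adjusted p = 0.0048). Initiation factors had 28 of 29 called higher at E17 before scaling, and 4 higher and 1 lower after it. Eif1ax, a factor of start codon scanning, had 0.30 ± 0.068 (SE, adjusted p = 0.025) after scaling, and Eif6, which keeps the large subunit from joining too early, had 0.18 ± 0.045 (SE, adjusted p = 0.0337). Genes of the mitochondrial ribosome had 75 of 78 called higher at E17 before scaling and 3 of 78 after it, below the share of all genes. Their medians after scaling were 0.089, 0.11 and 0.085, beside 0.12 for the ribosomal protein genes.

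At P5 58.2% of all genes were called lower before scaling, and 30.8% lower and 19.4% higher after it. Of the 40 nucleolar genes of ribosome assembly, 37 were called lower before scaling and 25 after it, with a median of -0.22 after scaling beside -0.04 for the ribosomal protein genes. Nop56, a core protein of box C/D small nucleolar particles, had 13.98, 13.1 and 14.8 RPKM in DKO libraries, against 25.5, 23.0 and 21.9 RPKM in WT libraries, with -0.71 ± 0.073 (SE, adjusted p = 2.88e-05) before scaling and -0.50 ± 0.054 (SE, adjusted p = 0.000151) after it. Ebna1bp2 and Nob1, both needed for subunit maturation, had -0.49 and -0.41 after scaling and were called lower. Of 12 tested genes of RNA polymerase I and rRNA transcription, 9 were called lower before scaling and 5 after it, among them Polr1b, a subunit of the polymerase, with -0.44 ± 0.064 (SE, adjusted p = 0.000675) after scaling. The mitochondrial ribosome had 63 of 78 called lower before scaling, and 31 lower and 1 higher after it. Elongation and initiation factors had 2 of 7 and 7 of 29 called lower after scaling, with 0 and 2 called higher, which lies near or below the share of all genes. With median-of-ratios scaling they had 0 and 3 called lower, and 1 and 2 higher. They included Eef1g at -0.17 and Eif4a1 at -0.23 after upper-quartile scaling. Whether these lists differ from the ribosomal protein genes was not tested.

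**Figure D5:**
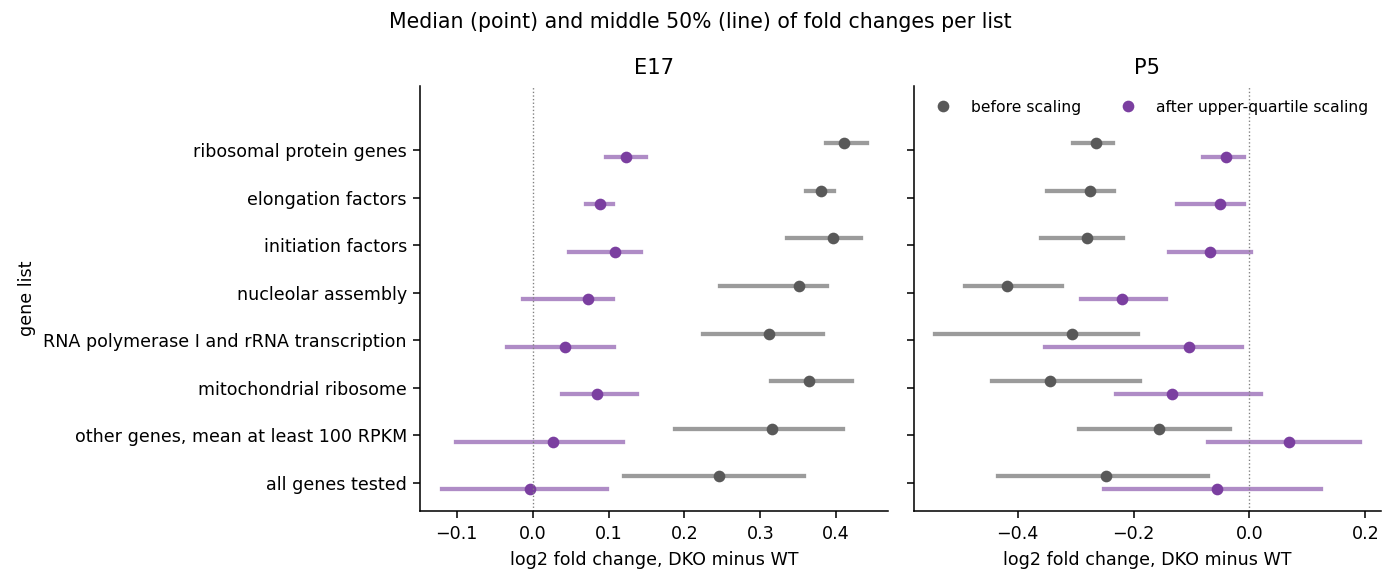
Median log2 fold change (point, x axis, DKO minus WT) and middle 50% (line) of each gene list (y axis) at E17 and P5, before scaling (grey) and after upper-quartile scaling (purple). After scaling the ribosomal protein genes have the highest median of the 8 lists drawn at E17 (0.12), and at P5 they lie at -0.04, where median-of-ratios scaling gave 0.021, while nucleolar assembly lies at -0.22.

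Among regulators of TOP mRNA and of growth, 5 of 8 were called higher at E17 before scaling and 1 after it, and 4 were called lower at P5 before scaling, with 2 lower and 2 higher after it. The counts before scaling lie near or below the shares of all genes given above. After scaling 3 of the 8 values were above 0 and 5 below at E17 (median -0.025). The same counts held at P5 (median -0.043, highest value 0.34). The genes named next were picked by smallest p, Myc at E17 and Mycn at P5 are not given, and a link to the family was not tested. Mycn, a transcription factor that drives ribosome production, rose to 8.62, 10.01 and 9.30 RPKM in DKO libraries at E17, against 4.19, 5.70 and 4.38 RPKM in WT libraries, with 0.60 ± 0.098 (SE, adjusted p = 0.0089) after scaling. At P5 its relative Myc fell to 2.96, 3.67 and 3.07 RPKM in DKO libraries, against 7.26, 5.47 and 5.70 RPKM in WT libraries, with -0.57 ± 0.094 (SE, adjusted p = 0.0013) after scaling. Rps6kb1, the kinase that phosphorylates the Rps6 protein, had -0.27 ± 0.055 (SE, adjusted p = 0.00334) after scaling at P5. At P0 23.2% of all genes were called lower and 16.7% higher before scaling, and 25.8% lower and 21.5% higher after it. Of the nucleolar genes, 15 were tested at P0, with a median of -0.031. Of these, 4 were called lower and 1 higher before scaling, and 4 lower and 3 higher after it. These counts lie near or below the shares of all genes. The genes called lower included Npm1, a histone chaperone of the nucleolus. It had 397, 368 and 395 RPKM in DKO libraries, against 549, 534 and 603 RPKM in WT libraries. Its log2 fold change was -0.54 ± 0.075 (SE, adjusted p = 0.000153) before scaling. Ncl, which encodes nucleolin, had -0.47 ± 0.079 (SE, adjusted p = 0.000595) before scaling, and Wdr12, a factor of large subunit assembly, had 0.35 ± 0.084 (SE, adjusted p = 0.00561). The values of Npm1 and Ncl lay below those of the 11 ribosomal protein genes of that table, the lowest of which was Rps15 at -0.25.

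Abundance alone was compared as well, since the family is highly expressed. The other genes with a mean of at least 100 RPKM had a median of 0.32 before scaling and 0.027 after it at E17, over 510 genes. At P5 the 340 such genes had -0.16 before scaling and 0.067 after it. Members that host small nucleolar RNA genes had a scaled median of 0.13 at E17 (29 genes), and members without had 0.12 (51 genes), so the 2 kinds lay together. When each library was instead divided by the level of its ribosomal protein genes, 376 genes were called higher and 1545 lower at E17, and 2377 higher and 2763 lower at P5.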

How the data were processed

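Ribosomal RNA was depleted from 1 µg of total RNA (integrity number above 7), per the labels' protocols. The authors processed the reads with Partek on mouse build mm10, per the submitters' processing notes; the sources used here do not give the aligner, annotation, strand or sharing of reads between copies. The deposited values are RPKM per transcript, a unit read from the values, and alignment counts stand in the deposited tables, per the file headers. Here RPKM were summed per symbol, genes reaching 1 RPKM in 3 or more of a stage's 6 libraries entered the fit (E17 13728, P0 2062, P5 11423), and log2(RPKM + 1) was compared with limma 3.58.1 (empirical Bayes with trend, R 4.3.3), two-sided, with Benjamini-Hochberg adjustment over all genes of the stage and calls at an adjusted p under 0.05. The fold change on this scale understates the change of low genes. The difference between stages used Satterthwaite degrees of freedom, over genes tested at both. Upper-quartile factors were the 75th percentile over the genes kept. Positions are from GENCODE M21 on mm10, promoters from RefSeq (GRCm38.p6). The fit was tested on simulated data.

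The members and lists were chosen with earlier results of these data known. Genes named are Rplp0 and Rps6, at E17 and P5 the 5 members farthest above and below the family's median, the 3 highest and 3 lowest in level, every member tested at P0, paralogs with their parents, the stalk, the 5S particle, up to 4 with a stage difference, and up to 4 of each other list by smallest p. Alternatives were upper-quartile and median-of-ratios scaling, no filter, a pseudocount of 0.1, no trend, the highest transcript of a gene, a block for the replicate number, leaving out each library, and shares without abundant non-coding RNA. Combinations with upper-quartile scaling, and the shares without Amelx or CT010467.1, were added after the data were seen. A few genes that these rules would name are not reported here.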

Additional observations from a re-analysis of the deposited data

Results flagged for a closer look

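The genotype effect of the ribosomal protein genes differed between E17 and P5, by the test of the difference of the log2 fold changes (DKO minus WT, E17 minus P5, adjusted over 11049 genes). Before scaling it differed in 79 of 79 genes tested at both stages, and after upper-quartile scaling in 10, all with the E17 effect above. Over all genes 78.1% were called in that direction before scaling and 27.5% after it, so the family's share after scaling was the lower one. With median-of-ratios scaling 3 of the 79 were called. The 10 differences after scaling were 0.94 for Rpl39l (with values near 1 RPKM), 0.37 for Rpl30, 0.35 for Rpl22, 0.30 for Rpl35, 0.22 for Rpl14, 0.26 for Rpl31, 0.23 for Rps19, 0.25 for Rpl39, 0.23 for Rpl12 and 0.22 for Rpl18. The stages sit in tables with different transcript annotations, and the count after scaling was 63 without WT replicate 1 (27.3% of all genes) and 3 to 5 without any other library number of a genotype.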

How the results depend on the processing

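Scaling moved the results most. With upper-quartile scaling the counts of called ribosomal protein genes were 1 at E17 and 3 at P5, against 80 and 74 before scaling, the medians were 0.12 and -0.040, and 10 genes differed between stages, against 79. With median-of-ratios scaling the counts were 1, 0 and 3 (higher) at the 3 stages, the medians 0.13, -0.050 and 0.021, and 3 genes differed. Over all genes at E17, 8188 were called before scaling, 2011 with upper-quartile, 2023 with median-of-ratios and 1921 with ribosomal protein scaling. Without the filter 45 members were called at E17 and 0 at P0, and without the trend 2 at P0. The share of RPKM without abundant non-coding RNA was 17.3% in DKO and 15.0% in WT libraries at E17, and with the highest transcript of each gene 14.4% in DKO and 17.2% in WT libraries at P5, the groups keeping their order. The cause was not tested in any of these.

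These P5 log2 fold changes turned positive with upper-quartile and with median-of-ratios scaling: Rpl35a 0.12 and 0.19, Rpl41 0.092 and 0.15, Rplp1 0.038 and 0.099, Rps12 0.085 and 0.15, Rps16 0.12 and 0.18, Rps27 0.099 and 0.16, and Rps27l 0.075 and 0.14. With median-of-ratios scaling alone Rpl11 (0.021), Rpl6 (0.025), Rplp0 (0.051) and Rplp2 (0.038) did so at P5, and Rps12 (0.017) at P0. Rpl6l at P0 ranged from -0.21 to 0.045 with single libraries left out, the highest without WT replicate 3. Of the 56 values of single genes at a stage, 35 lost their call with upper-quartile and 34 with median-of-ratios scaling without changing sign, 16 without the filter and 56 stayed on their side of the threshold with a pseudocount of 0.1.

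With single libraries left out, the count at P0 ranged from 0 to 1 and was 0 without DKO replicate 1, DKO replicate 2, WT replicate 2 or WT replicate 3. After upper-quartile scaling the range was 0 to 44 at E17, 0 in each case at P0 and 1 to 7 at P5, and 3 to 63 for the difference between stages. Same-numbered DKO and WT libraries deviated with correlations of -0.022, 0.22 and -0.021 at E17, -0.17, 0.27 and -0.081 at P0, and -0.22, -0.072 and 0.044 at P5. Libraries with other numbers ran from -0.42 to 0.52 at P0. With 3 libraries per group these values cannot show whether the numbers pair the samples. With the replicate block the counts were 54, 2 and 70 over the stages in order of age, and after upper-quartile scaling 1, 0 and 4, with 7 differing between stages. Depth limits low genes such as Rpl39l, whose values lie near 1 RPKM, and the number of reads behind a value is not known.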
